A study of Rattus norvegicus with 6 samples.

Results

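Fragments of the cytosolic alanine tRNAs (AlaAGC, AlaCGC and AlaTGC, named by amino acid and anticodon) were followed in small RNA libraries of AR42J cells. Members were all read sequences whose mature tRNA alignments were to Ala references and to no other tRNA. The rule took 36 of the 403 mature tRNA references, 2254 of 67949 tRNA read sequences and 201494 of 1671615 tRNA reads. Of the references, 24 were AlaAGC, 3 AlaCGC and 9 AlaTGC.

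AR42J is a rat cell line of the exocrine pancreas that is used as a model of acinar cells. Sodium taurocholate was applied at 200 µM over 30 min for 3 of the 6 libraries, and the other 3 came from untreated cells. Taurocholate is a bile salt used to provoke acute pancreatitis in rats. The question was which tRNA fragments differ after this exposure. Nothing in the labels tells separate cultures from repeat libraries, so every p-value measures only how these libraries scatter, and that scatter may be technical. Of the acinar markers, miR-148a was abundant, at 284614 to 422852 reads per 1000000 miRNA reads over the 6 libraries, while the defining acinar miRNAs miR-216a, miR-216b and miR-217 were at or near 0, at no more than 1.1 on the same scale. Of the blood markers miR-142 was at 1867 to 3431, miR-451 at 32.5 to 1148 and miR-223 at 0.251 to 4.66, of the islet markers miR-7a was at 41368 to 59949 and miR-375 at 2.51 to 77.5, the stroma marker miR-143 was at 9709 to 13463 and the liver marker miR-122 at 6.88 to 26.7. Their part in the results was not tested.

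Transfer RNAs carry amino acids to the ribosome and are cut into shorter stable RNAs. Cleavage in the anticodon loop, known for the ribonuclease angiogenin under stress, gives the long 5′ and 3′ fragments tiRNA-5 and tiRNA-3. Cuts nearer the ends give short tRF-5 and tRF-3, and pieces from between are i-tRF. A tRF-3 carries the CCA that is added to every mature tRNA and receives the amino acid. The tiRNA-5 of tRNA-Ala begins with a run of G, which lets it form a G-quadruplex, and in human cells it, like that of tRNA-Cys, is known to repress translation. In the T loop of many tRNAs an A carries a methyl group (m1A) that stops reverse transcriptase; per the labels' protocols, such methyl groups were removed before these libraries were made.

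The Ala fragments were nearly all pieces of the last bases of the molecule, and the following 8 sequences are shown because they are the 18-nt fragments that tell the Ala 3′ ends apart. Another end, of 1 AlaAGC reference, had 2 reads and is not shown. Capitals mark the CCA tail, and the anticodons of the references each one matches are given with it.
AlaCGC and AlaTGC, 6 references: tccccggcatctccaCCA
AlaAGC, 1 reference: tccccagcatctccaCCA
AlaAGC and AlaTGC, 5 references: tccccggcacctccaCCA
AlaAGC, 2 references: tgcccacatcctccaCCA
AlaAGC, 2 references: tgcccgcatcctccaCCA
AlaAGC, 2 references: tgcccgcattctccaCCA
AlaAGC, 3 references: tccccagcacctccaCCA
AlaTGC, 1 reference: ttcccggcatctccaCCA
They are followed by the longer 22-nt form of the first of them and by the most abundant fragments of the other classes, shown to place each class on the molecule. Capitals mark the CCA tail or the opening run of G.
tRF-3, 22 nt, AlaCGC and AlaTGC: tcgatccccggcatctccaCCA
tRF-5, all 3 anticodons: GGGGatgtagctcagtggt
tiRNA-5: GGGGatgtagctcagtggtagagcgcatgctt
tiRNA-3: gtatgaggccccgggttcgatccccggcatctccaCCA
i-tRF: gcgagaggtagcggga

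Of the 36 references, 23 had a 3′ end spelled by reads, on chromosomes 1, 2, 3, 6, 10, 12, 17, 18 and X, with 14 of them on chromosome 17. The 13 others took few reads, with 8, 6 and 13 reads that matched these alone in the taurocholate libraries and 15, 18 and 17 in the untreated libraries. Most Ala fragments could not be traced to 1 gene, since the references are near-identical copies: 8414, 5322 and 7532 reads matched a single reference in the taurocholate libraries, and 3913, 7864 and 5032 in the untreated libraries. Nearly all of these, 37329 reads over all libraries, matched the same AlaAGC reference on chromosome 17. They were also most of the 50295 reads that fit AlaAGC alone. A set of anticodons such as AlaCGC/TGC below means that the read fits both equally. Coordinates of the genes were not used here.

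Libraries held 338310, 254998 and 306389 tRNA reads with taurocholate and 193750, 348451 and 229717 without. Ala reads numbered 48480, 27078 and 39848 in the taurocholate libraries and 20411, 38950 and 26727 in the untreated libraries. As a share of tRNA reads they took 14.3%, 10.6% and 13.0% with taurocholate and 10.5%, 11.2% and 11.6% in untreated cells. The group means were 12.7% ± 1.88 and 11.1% ± 0.553 (SD, n = 3 each), and the groups overlapped. The exact permutation test, two-sided, gave p = 0.3; with 3 against 3 libraries its smallest possible p is 0.1. This and the 19 other measures compared between groups by the same test formed 1 family of 20, and no adjusted p (Benjamini-Hochberg) in it was below 0.5.

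tRF-3 made up 98.7% ± 0.253 of Ala reads with taurocholate and 98.3% ± 0.281 in untreated cells (SD, n = 3 each, exact permutation p = 0.3, adjusted p = 0.706). The same class took 42.6% ± 1.65 of the reads of all other nuclear tRNAs (SD, n = 6 libraries), and the difference of 55.9 percentage points held in 6 of 6 libraries, with a range of 54.3 to 58.7. An exact sign-flip test over the 6 libraries gave p = 0.0313, the smallest it can give. Ala is thus set apart from the pool of other nuclear tRNAs by a larger share of 3′ ends in treated and untreated cells alike. Within Cys-GCA, the tRNA whose tiRNA-5 shares the known repressor activity, tRF-3 took 47.8% to 60.4% of reads over the libraries.

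**Figure D1:**
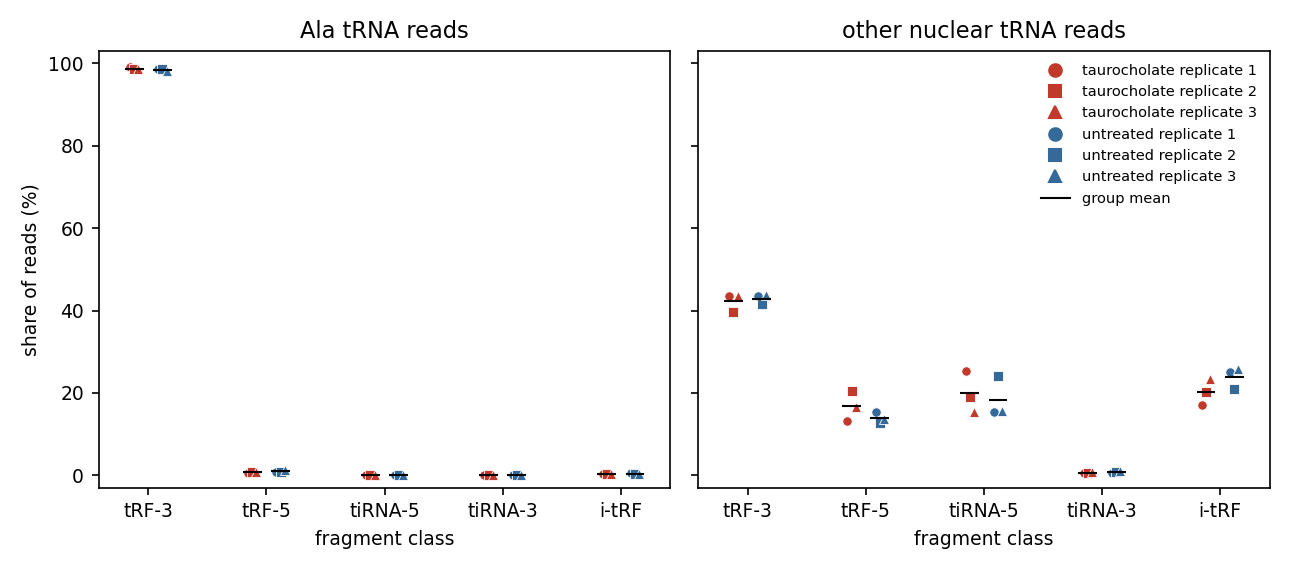
Share of reads in each fragment class, in percent, for Ala tRNA reads (left) and reads of all other nuclear tRNAs (right); each point is a library and each bar a group mean, with taurocholate left of untreated. tRF-3 lies between 98.0% and 98.9% in every Ala library and between 39.7% and 43.8% in the other tRNAs.

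The remaining Ala classes were small. tRF-5 took 0.746% ± 0.184 of Ala reads with taurocholate and 0.971% ± 0.320 in untreated cells, i-tRF 0.400% ± 0.0558 and 0.456% ± 0.107, tiRNA-3 0.137% ± 0.00262 and 0.161% ± 0.0307, and tiRNA-5 0.0582% ± 0.0192 and 0.0704% ± 0.0221 (SD, n = 3 each). In all 4 classes the groups overlapped. Each class was lower in Ala than in other nuclear tRNAs in 6 of 6 libraries. tRF-5 averaged 0.858% of Ala reads against 15.4% of other reads, tiRNA-5 0.0643% against 19.1%, i-tRF 0.428% against 22.1% and tiRNA-3 0.149% against 0.772% (exact sign-flip p = 0.0313 each, adjusted p = 0.0313 over the 5 classes). Without reads of 51 nt, which show no 3′ end, the tiRNA-5 difference was -13.56 points against -19.05 in all reads.

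The tiRNA-5, the form of tRNA-Ala studied in human cells, was rare here. Its reads numbered 19, 21 and 23 in the taurocholate libraries and 13, 37 and 14 in the untreated libraries. Untreated replicate 2 held the most, and the groups overlapped. Of the tiRNA-5 reads, 10, 6 and 2 with taurocholate and 0, 13 and 0 without had 51 nt. Such reads show no 3′ end, so where these fragments end is not known. Together with tRF-5, reads from the 5′ end numbered 278, 254 and 359 with taurocholate and 161, 370 and 370 without. The opening GGGG was present in 87.1%, 88.2% and 86.9% of these in the taurocholate libraries and in 81.99%, 90.0% and 85.1% in the untreated libraries. In Cys-GCA, GGGG was present in 31.9% to 46.2% of the 5′ reads over all libraries. Its 5′ reads were 1.52% to 2.10% of its reads, against 0.573% to 1.38% for Ala. The Ala counts leave out reads shared with other tRNAs. With any mature alignment to Ala counted, the tRF-5 difference between Ala and other nuclear tRNAs was -13.99 points, against -14.53 without. The low 5′ share of Ala may thus rest partly on this rule. The comparison with Cys-GCA was not repeated with the shared reads. For 8 of the 23 Ala references with a 3′ end, all on chromosome 17, no error-free read started at the first base among the reads analysed here, so 5′ counts come mainly from the other 15 references. Without the reads of those 8 references, chosen after seeing the data, tRF-3 was 98.4% of Ala reads and exceeded the other tRNAs by 55.8 points.

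The lengths of the 5′ fragments were spread from 16 nt, the shortest in the files, upwards. Pooled over all libraries, reads of 19 nt, such as the tRF-5 printed above, were the most frequent at 17.8%. Next came 16.4% at 24 nt, 15.9% at 16 nt and 8.98% at 23 nt. By library, 19 nt led only in untreated replicates 1 and 3. Reads of 16 nt led in taurocholate replicates 1 and 3, and reads of 24 nt in replicate 2 of both groups. Among 5′ reads shorter than 51 nt, those of 19 nt made up 17.5% ± 0.310 with taurocholate and 18.7% ± 1.59 in untreated cells (SD, n = 3 each, exact permutation p = 0.4). Among reads of 26 to 40 nt the mean length was 30.4 ± 0.590 nt with taurocholate and 29.9 ± 0.203 nt without, with overlapping groups. The tiRNA-3 peaked at 38 nt, with 40.7% of 300 reads, next to 19.7% at 37 nt and 29.7% at 39 nt; the fragment printed above is of the 38-nt kind.

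The anticodon sets kept similar proportions in both groups. AlaCGC/TGC fragments made up 68.0% ± 2.17 of Ala reads with taurocholate and 66.8% ± 0.402 without, AlaAGC 24.7% ± 1.56 and 25.5% ± 0.675, and AlaAGC/TGC 6.09% ± 0.415 and 6.19% ± 0.0858 (SD, n = 3 each). All 3 sets overlapped between groups. Reads that could only be AlaCGC were 41, 23 and 32 in the taurocholate libraries and 29, 44 and 29 in the untreated libraries, most of them i-tRF. As a share of Ala reads they were 0.0846%, 0.0849% and 0.0803% with taurocholate and 0.142%, 0.113% and 0.109% without, so that each taurocholate library lay below each untreated one. The exact permutation p was 0.1, the smallest this test allows, and the adjusted p was 0.5. Reads of AlaTGC alone averaged 0.220% ± 0.0370 with taurocholate and 0.238% ± 0.0362 in untreated cells.

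Joining class and anticodon gave 25 Ala features, of which 12 had enough reads to be tested. Levels below are reads per 1000000 tRNA reads of the library (CPM), and the log2 fold change of taurocholate over untreated comes from edgeR's quasi-likelihood test on the counts of all 236 tested features, with TMM scaling. None of the 12 Ala features was called at an adjusted p (Benjamini-Hochberg) under 0.05; over all 236 features 0 were called as well, which is 0% of them. An unadjusted p under 0.05 was reached by 0 of 12 Ala features and by 24 of 236 features in all (10.2%), and DESeq2 called 1 of the 236 features and 0 of the 12. In CPM, all taurocholate libraries lay above all untreated ones for 0 of the 12 and for 9 of the 236 (3.81%). The 12 passed a filter on low counts that the other 13 did not, so they are not all members. Of the 12, 8 had a positive and 4 a negative log2 fold change, and their median was 0.26 against 0.01 over all features. Scaled by library totals, the medians were 0.12 and -0.12, and without taurocholate replicate 1 they were 0.10 and -0.06.

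The most abundant Ala feature, tRF-3 of AlaCGC/TGC, was at 100730, 70165 and 87529 CPM in the taurocholate libraries and 70415, 73947 and 77813 CPM in the untreated libraries. Taurocholate replicates 1 and 3 lay above every untreated library and replicate 2 below them all. Its log2 fold change was 0.36 (SE 0.16, edgeR adjusted p = 0.464), and 0.16 without taurocholate replicate 1. tRF-3 of AlaAGC was at 32399, 26992 and 32266 CPM with taurocholate and 26307, 28845 and 28426 CPM without. The groups overlapped through replicate 2 again, and the log2 fold change was 0.27 (SE 0.14, edgeR adjusted p = 0.495). tRF-3 of AlaAGC/TGC was at 8185, 6929 and 7814 CPM with taurocholate and 6586, 6802 and 7178 CPM without. It had a log2 fold change of 0.30 (SE 0.14, edgeR adjusted p = 0.495), again with overlap. Without taurocholate replicate 1 the last 2 changes were 0.16 and 0.18.

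Rarer features spread more widely. tRF-5 of all 3 anticodons was at 532, 710 and 839 CPM with taurocholate and 557, 703 and 1271 CPM in untreated cells, where replicate 3 stood highest. tRF-3 of all 3 anticodons averaged 321 ± 80.7 CPM with taurocholate and 379 ± 60.1 CPM without (SD, n = 3 each). i-tRF of AlaAGC averaged 322 ± 46.5 and 292 ± 56.9 CPM, tRF-5 of AlaAGC 191 ± 32.5 and 195 ± 22.1 CPM, tRF-3 of AlaTGC 188 ± 15.8 and 153 ± 34.1 CPM, and tiRNA-3 of AlaCGC/TGC 108 ± 11.95 and 94.6 ± 15.2 CPM, taurocholate before untreated. For these 6 features the groups overlapped, and the log2 fold changes ran from -0.13 to 0.43 with edgeR adjusted p from 0.527 to 0.90.

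**Figure D2:**
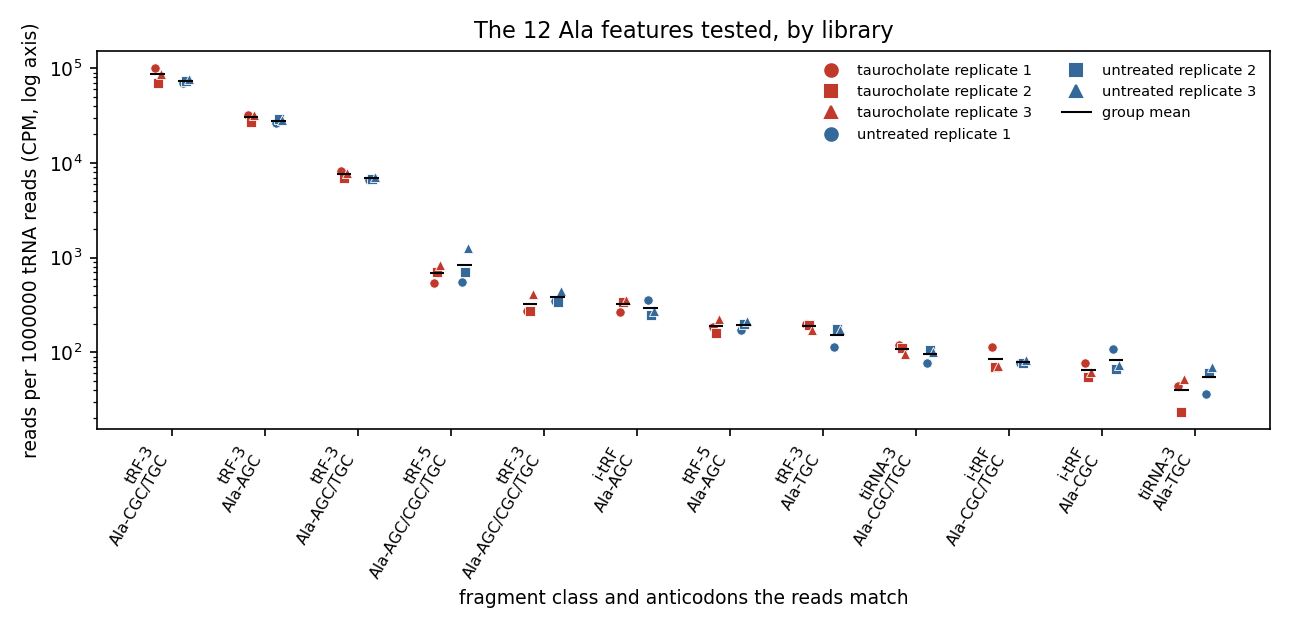
Level of the 12 tested Ala features in reads per 1000000 tRNA reads, on a log axis; points are libraries, with taurocholate left of untreated, and bars are group means. In each of the 12 features the groups overlap, and 3 tRF-3 features stand well above the rest.

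Nearly every Ala tRF-3 began at 1 of 4 places. Counted so that an 18-nt start gives an 18-nt read if it runs to the last base, 75.1% of Ala tRF-3 reads had the 18-nt start, 10.5% the 22-nt start, 8.16% the 17-nt start and 4.52% the 16-nt start (mean of 6 libraries). In the pool of other nuclear tRNAs 2 starts were about as frequent: 40.4% of their tRF-3 reads had the 18-nt start and 42.3% the 17-nt start. The starts of single other tRNAs were not compared, so a dominant start may not be particular to Ala. The excess of the 18-nt start in Ala was 34.8 points, higher in 6 of 6 libraries (exact sign-flip p = 0.0313, the smallest possible). It was 10.5 points in reads of 18 to 40 nt alone and 3.93 points with each sequence counted once. The 22-nt start was at 8.87% in other nuclear tRNAs, also lower than in Ala in 6 of 6 libraries, by 0.418 to 2.59 points, but in reads of 18 to 40 nt alone it was lower in Ala, with a difference of -9.33 points. These start measures were added after seeing the data.

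**Figure D3:**
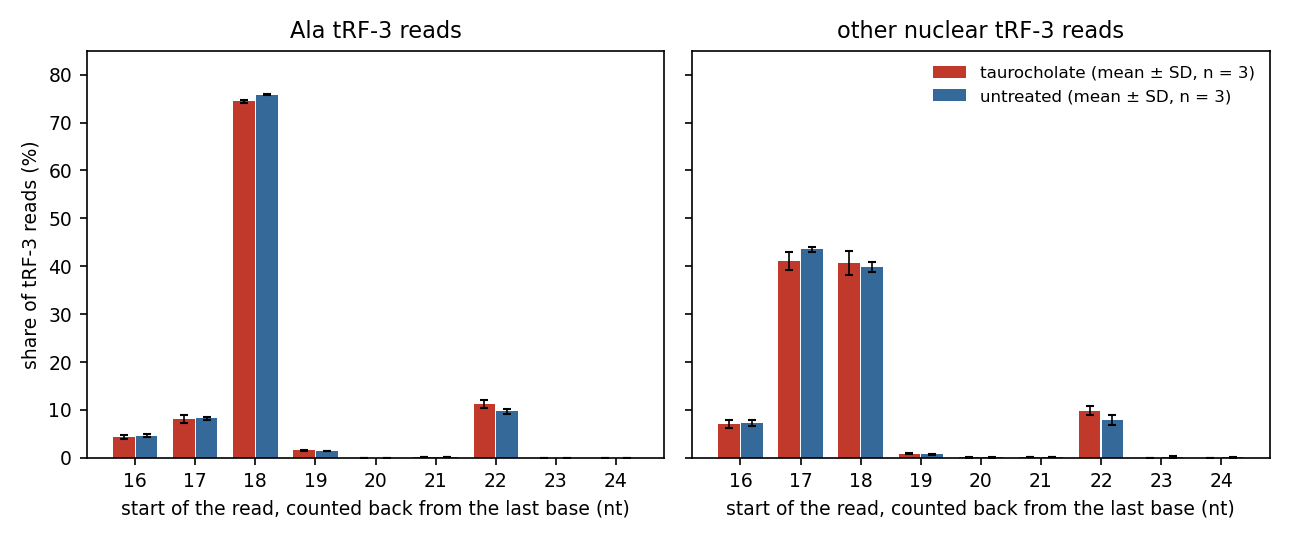
Share of tRF-3 reads with each start, in percent, counted back from the last base, for Ala (left) and all other nuclear tRNAs (right); bars are means and error bars the SD of 3 taurocholate (red) and 3 untreated (blue) libraries. Ala has 1 dominant start at 18 nt, where the other tRNAs, taken as 1 pool, have a pair at 17 and 18 nt.

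Of the family of 20 measures, the groups did not overlap in the AlaCGC share above and in 3 measures of tRF-3 ends. These 3 were added after seeing the data. They are shares of the same tRF-3 reads, so they are not independent. The 18-nt start took 74.5%, 74.7% and 74.1% of Ala tRF-3 reads with taurocholate and 76.0%, 75.8% and 75.8% in untreated cells. All taurocholate libraries lay below all untreated ones, by 1.45 points in the mean. The 22-nt start took 10.4%, 12.1% and 11.3% with taurocholate and 9.60%, 10.2% and 9.26% without. Here the taurocholate libraries lay above, by 1.58 points. Reads that ended 1 nt before the last base made up 7.07%, 6.94% and 7.37% with taurocholate and 8.11%, 8.24% and 8.51% without, again with no overlap. In reads of 18 to 40 nt alone, which leaves out the 17-nt reads of the 18-nt start, the last difference was -0.101 points (exact permutation p = 0.5) against -1.16 in all reads. With each sequence counted once, the difference in the 22-nt start was 0.962 points and the groups overlapped (exact permutation p = 0.5). In all reads, each of the 3 measures had the smallest possible exact permutation p of 0.1 and an adjusted p of 0.5. In other nuclear tRNAs the 22-nt start took 9.08%, 9.51% and 10.9% of tRF-3 reads with taurocholate and 7.23%, 9.07% and 7.44% without, which did not overlap either. Their 18-nt start took 39.43%, 43.65% and 39.22% with taurocholate and 41.08%, 39% and 39.72% without, and here the groups overlapped.

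The group difference in the 22-nt start, which no test established, was also described within single 3′ ends. For this, 22-nt and 18-nt reads with the same last 18 letters were compared. These reads are among those of the shares above, so the ratios are no independent test. For the end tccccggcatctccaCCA there were 13.1, 14.7 and 14.3 error-free 22-nt reads per 100 18-nt reads in the taurocholate libraries and 11.3, 12.6 and 10.8 in the untreated libraries. For tccccagcatctccaCCA the ratios were 13.7, 14.3 and 15.1 with taurocholate and 12.1, 13.0 and 13.4 without. For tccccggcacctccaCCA they were 17.4, 18.5 and 19.9 with taurocholate and 14.9, 16.1 and 13.3 without, but here the 18-nt reads match 5 references of AlaAGC and AlaTGC and the 22-nt reads 3 of AlaAGC, so the gene sets differ. All taurocholate libraries lay above all untreated ones in these 3 ends and in tgcccacatcctccaCCA, which had 11.4 ± 1.47 and 7.20 ± 0.387 (SD, n = 3 each). The fifth end with at least 100 reads of each length, tccccagcacctccaCCA, overlapped, at 39.5 ± 7.86 with taurocholate and 40.1 ± 11.9 without. Among ends of other nuclear tRNAs with that many reads, 8 of 21 (38.1%) lay wholly above, and 0 of the 21 wholly below. The 5 ends were picked for their read number after the difference in the 22-nt start was seen, so their values are a description.

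**Figure D4:**
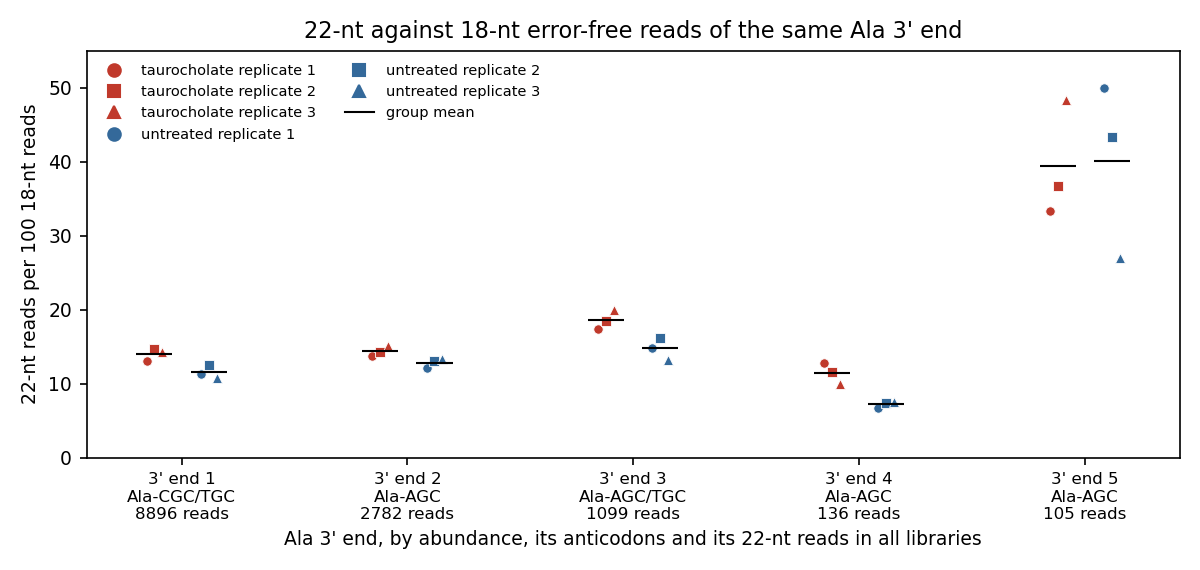
Error-free 22-nt reads per 100 error-free 18-nt reads of the same Ala 3′ end, for the 5 ends with at least 100 reads of each, numbered by abundance in the order of the text; points are libraries, with taurocholate left of untreated, and bars are group means. In ends 1 to 4 the 3 taurocholate libraries sit above the 3 untreated ones, and in end 5, with 105 22-nt reads, they overlap.

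Single read sequences were tested in the same way over all 2233 sequences with enough reads, 146 of them Ala. edgeR's quasi-likelihood test called none at an adjusted p under 0.05 (0% of the 2233), and DESeq2 called 44, of which 0 were Ala. An unadjusted p under 0.05 was reached by 11 of the 146 Ala sequences and by 315 of the 2233 (14.1%). Higher with taurocholate were 10 of these 11 and 156 of these 315. Out of all sequences tested, that is 10 of the 146 Ala sequences and 156 of the 2233 (6.99%). The median log2 fold change was 0.20 over the Ala sequences and 0.03 over all, and by library totals it was 0.02 and -0.13.

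The 6 most abundant sequences were all pieces of the last bases. The 18-nt fragment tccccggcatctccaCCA had 12299, 10304 and 14710 reads in the taurocholate libraries and 6343, 14889 and 10015 in the untreated libraries. In CPM this was 41591 ± 5918 with taurocholate and 39688 ± 6035 without (SD, n = 3 each), and the groups overlapped (log2 fold change 0.26, edgeR adjusted p = 0.627). tccccagcatctccaCCA had 3245, 3181 and 4344 reads with taurocholate and 1928, 4768 and 2785 without, with a log2 fold change of 0.20 (edgeR adjusted p = 0.690). The 17-nt ccccggcatctccaCCA, cut 1 base further in, was at 5043 ± 1099 CPM with taurocholate and 4730 ± 896 CPM without. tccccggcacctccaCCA was at 3987 ± 768 CPM with taurocholate and 3641 ± 668 CPM without. Both pairs of groups overlapped.

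The 22-nt tcgatccccggcatctccaCCA had 1184, 1126 and 1562 reads with taurocholate and 528, 1334 and 798 without. Its log2 fold change was 0.56 (SE 0.22, edgeR adjusted p = 0.331). Of 9 error-free 22-nt Ala sequences with at least 10 CPM, 7 were tested and all 7 had a positive log2 fold change, with a median of 0.56. The 8 tested 18-nt ones were all positive too, with a median of 0.23; over all tested sequences 1166 of 2233 were positive and the median was 0.03. Without taurocholate replicate 1 the first 2 medians were 0.59 and 0.18, and by library totals 0.38 and 0.04. By library totals some of the 18-nt sequences had a negative log2 fold change, down to -0.07, while the 7 of 22 nt stayed positive.

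By smallest p, the sequences named as higher with taurocholate were also low in reads. The 21-nt cgatccccggcatctccaCCA had 15, 19 and 25 reads with taurocholate and 5, 11 and 6 without, with each taurocholate library above each untreated one in CPM (log2 fold change 1.38, SE 0.29, edgeR adjusted p = 0.302). The 22-nt tcgatgcccgcatcctccaCCA of AlaAGC had 14, 23 and 23 reads with taurocholate and 9, 12 and 5 without, and its groups overlapped in CPM (log2 fold change 1.16, edgeR adjusted p = 0.302). The third, ggTgatgtagctcagt, is a 16-nt tRF-5 with the mismatch G3T, counted from 1 at the 5′ end of the read, and had 13, 12 and 22 reads against 8, 7 and 5 in untreated cells.

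On the lower side, the 17-nt tgcccacatcctccacT with the mismatch C17T had 7, 9 and 18 reads with taurocholate and 20, 19 and 18 without (log2 fold change -0.86, edgeR adjusted p = 0.351). tccccagcatctccacT, also C17T, was at 405 ± 118 CPM with taurocholate and 599 ± 89.5 CPM without, and ccccggcatctccaccT, with A17T, at 295 ± 60.7 and 453 ± 105 CPM (SD, n = 3 each). These last 2 had an unadjusted p above 0.05. All 3 sequences named on the lower side end in a mismatched T.

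Most abundant in their class or set, the remaining named sequences were sparse. The i-tRF gcgagaggtagcggga had 15, 16 and 22 reads with taurocholate and 10, 11 and 8 without (log2 fold change 0.80, edgeR adjusted p = 0.321). The tRF-5 GGGGatgtagctcagtggt had 17, 35 and 40 reads with taurocholate and 17, 38 and 54 without, and its groups overlapped. The AlaTGC tRF-3 tcccggcatctccaCCA was at 45.3 ± 13.9 CPM with taurocholate and 44.8 ± 8.12 CPM without. The tiRNA-3 and tiRNA-5 printed above had 38 and 23 reads in all libraries, and the AlaCGC i-tRF gtgtgaggtcccgggt had 33; these were too few to be tested.

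The third most abundant Ala sequence, tccccggcatctccaccG, differs from the first by A18G at its last base, the A of the CCA tail. It had 9333, 302 and 630 reads in the taurocholate libraries and 1525, 584 and 492 in the untreated libraries. The first replicate of each group stood far above the other two, so the groups overlapped and the log2 fold change of 1.92 had an SE of 1.33 (edgeR adjusted p = 0.533); without taurocholate replicate 1 it was -1.24. Over all Ala tRF-3 reads that reach the last base, G replaced A in 38.8%, 2.59% and 3.37% with taurocholate and in 15.7%, 3.22% and 3.73% without. In other nuclear tRNAs the shares were 35.2%, 2.27% and 2.78% with taurocholate and 14.2%, 2.69% and 3.35% without, with the libraries in the same order as in Ala. Ala reads aligned without any difference numbered 24727, 21417 and 30891 with taurocholate and 12977, 31275 and 20409 without.

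**Figure D5:**
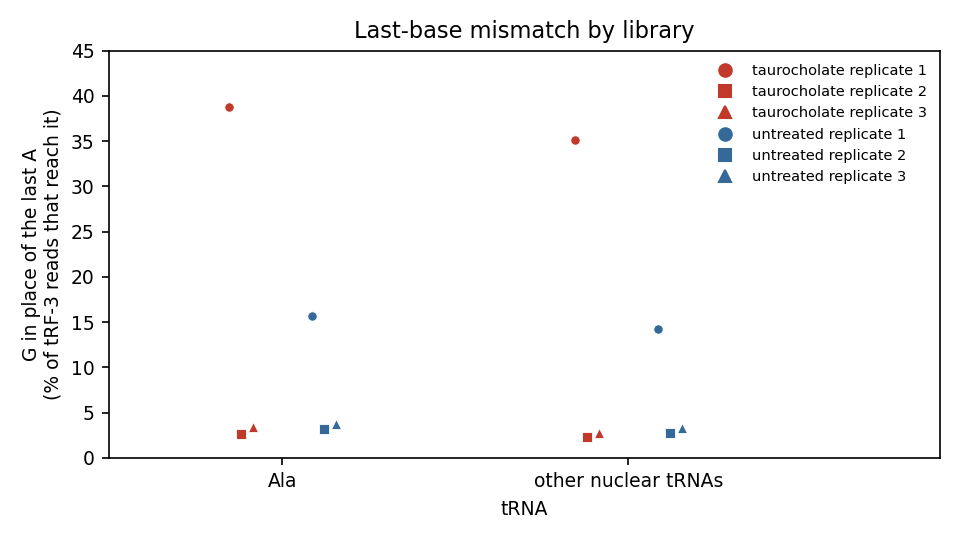
Share of tRF-3 reads that reach the last base and carry G in place of its A, in percent, in Ala and in other nuclear tRNAs; each point is a library, with taurocholate left of untreated. Replicate 1 of taurocholate (38.8% in Ala) and replicate 1 of untreated (15.7%) stand above the other 4 libraries, which lie between 2.59% and 3.73% in Ala.

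Mismatches were also counted at bases known to be modified. The A just before the 18-nt start, which is the base that carries m1A in many tRNAs, was read with a mismatch in 172 of 21823 Ala reads that span it (0.788%). The neighbouring bases were misread in 0.340% on the 3′ side and 0.0644% on the 5′ side. By library the share at that A was 0.463%, 1.05% and 0.929% with taurocholate and 0.750%, 0.829% and 0.821% without, and the groups overlapped. The first anticodon base of AlaAGC is an A that is converted to inosine in tRNA and then reads as G. Of 35 reads across it, 21 carried G, 16 as A33G and 5 as A34G, counted from the first base of the reference. At the base on the 3′ side of the anticodon, which in eukaryotic tRNA-Ala is known to be methylated inosine, 12 of 82 reads across it had a mismatch, as A36G in 8, A36T in 3 and A37G in 1.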

How the data were processed

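Per the file headers, the deposited values are counts: each line aligns 1 distinct read sequence to a tRNA or miRNA reference, with its reads and mismatches. Alignments held at most 1 difference, and reads were 16 to 51 nt. Per the submitters' processing notes, FastQC, cutadapt and Novoalign 2.07.11 were used; the genome build is not given in the sources used here. Per the labels' protocols, RNA was deacylated, its ends repaired and m1A and m3C demethylated, and libraries were cut by size; no molecular identifiers are mentioned, so counting errors may understate the spread.

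Each sequence was counted once per library. Classes allowed 3 nt at either end; tRF have at most 30 nt and tiRNA at least 31. A reference's 3′ end was set at the last CCA present in reads without mismatch, found for 320 of 403 references. Reads shared with other tRNAs or aligned only to precursors were left out. CPM use library totals, 193750 to 348451 tRNA reads. Tests were edgeR 4.0.16 in R 4.3.3 (quasi-likelihood, TMM, filterByExpr, Benjamini-Hochberg, adjusted p under 0.05) on all 6 libraries, checked on simulated data, and two-sided exact permutation or sign-flip tests of shares. Alternatives were DESeq2 1.42.0, other scaling, filters, read sets and end tolerances, a replicate block and leaving out each library. Tables were made with pandas 2.3.3 in Python 3.11.15. Named features had at least 100 CPM or p under 0.05; named sequences were the 6 most abundant, the first of each class and anticodon set, and the 3 of smallest p in each direction at 10 CPM or more. Members, lists and rules were chosen with earlier results of these data known.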

Additional observations from a re-analysis of the deposited data

How the results depend on the processing

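Over 58 results and all settings, 577 of 651 recomputed values were counted as unchanged. That meant the same direction and the same side of the 0.05 threshold, or a like number where calls were counted. The permutation tests between groups cannot go below p = 0.1, so for these only the direction could change. The ratios of 22-nt to 18-nt reads were judged on direction alone. No Ala feature was called under any setting. Without a filter on low counts, 20 Ala sequences were called (125 of 67949 in all, 0.184%); all 20 end in a mismatched G, and 68.7% to 92.8% of the reads of each came from taurocholate replicate 1. Leaving out a library, the smallest possible sign-flip p is 0.0625, so no class difference between Ala and other nuclear tRNAs could pass; the differences ran from 55.3 to 56.2 points for tRF-3, -15.1 to -13.5 for tRF-5, -19.8 to -17.8 for tiRNA-5, -0.663 to -0.584 for tiRNA-3 and -22.7 to -21.0 for i-tRF, and for the 18-nt and 22-nt starts from 34.4 to 35.5 and 1.41 to 1.85. With each sequence counted once, the tiRNA-3 difference was 0.274, that of tRF-5 -5.34 and that of i-tRF -40.7, and in reads of 18 to 40 nt that of tRF-5 was -22.8 and that of the 22-nt start -9.33. The 22-nt start difference was 5.77 with each sequence counted once and 2.49 in error-free reads. The cause was not tested.

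With each sequence counted once, the difference between groups in the AlaCGC share was -0.466 points (exact permutation p = 0.3), and in reads of 18 to 40 nt -0.0210. Between groups, differences of taurocholate minus untreated shares, in points, changed sign with each sequence counted once for AlaAGC (0.338) and tiRNA-5 (0.0678), in error-free reads for AlaAGC/TGC (0.0920) and i-tRF (0.0173), and in reads of 18 to 40 nt for AlaAGC/TGC (0.0854) and a mismatched first base of the 18-nt start (-0.0300); in error-free reads the mismatch shares are 0 by construction. Leaving out a library gave -1.42 to 0.0605 for AlaAGC, -0.320 to 0.0900 for AlaAGC/TGC, -0.0402 to 0.000620 for AlaTGC, -0.0945 to 0.00584 for i-tRF, -0.0219 to 0.000119 for tiRNA-5, -0.212 to 0.288 for the first base and -4.56 to 13.6 for the last-base G. For log2 fold changes it gave -0.54 to 0.21 for GGGGatgtagctcagtggt, -1.24 to 2.98 for tccccggcatctccaccG, and -0.25 to 0.01 for tRF-3 and -0.35 to 0.23 for tRF-5 of all 3 anticodons. The difference in 22-nt reads per 100 18-nt reads of tccccagcacctccaCCA ran from -7.20 to 4.34. tRF-5 of AlaAGC was at -0.03 by library totals and -0.48 in reads of 18 to 40 nt. Same-number correlations were -0.20, 0.04 and 0.29 over 236 features, in which mismatched and error-free reads are pooled. Between taurocholate and untreated libraries of unlike number they ran from -0.46 to 0.30. Replicate 1 of both groups shared the high last-base G, so whether the numbers pair the libraries was not settled. A replicate block called 0 Ala features and 0 Ala sequences, and gave tccccggcatctccaccG a log2 fold change of 0.57 against 1.92 without it. With at most 66 reads of either class per library, tiRNA-5 and tiRNA-3 were too shallow for small differences to be detectable.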

Other observations

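Reads that matched Ala and Val references equally were left out and numbered 136, 169 and 239 in the taurocholate libraries and 140, 175 and 149 in the untreated libraries. Reads aligned only to Ala precursors numbered 860, 582 and 877 with taurocholate and 668, 951 and 729 without.

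An AlaAGC reference on chromosome 10 was matched alone by 7, 5 and 11 reads in the taurocholate libraries and 10, 17 and 16 in the untreated libraries. Ala reads of 51 nt, which show no 3′ end, numbered 10, 6 and 2 with taurocholate and 0, 14 and 0 without.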
